A study of Mus musculus with 2 samples.

Results

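Arginase and the enzymes that turn arginine into polyamines were followed in Vγ6 γδ T cells of newborn mice, as 10 genes: Arg1, Arg2, Nos2, Ass1, Odc1, Amd1, Srm, Sms, Sat1 and Oaz1. Every row of the deposited table that named one of these symbols was taken, which gave 9 rows for 9 genes, out of 65956 rows and 33775 distinct gene symbols in all. Of the 9 rows, 6 named 1 gene and 3 named several, and Amd1 was not analysed here because no row carried its symbol. The genes were chosen with their differences between these arrays in view, so their values are a description of the arrays and not a test.

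The cells came from the thymus of C57BL/6 mice aged 0 days that were MHC class II KO, with those antigen-presenting molecules missing (below KO), or wild type (WT). Antibody staining and flow cytometry picked them out as Vγ6 γδ T cells, a subset that leaves the thymus around birth and is known for making interleukin 17. Each genotype was measured on 1 whole-transcript array, so the differences below have no error and no p-value and rest on these arrays alone. The sources used here give neither the class II gene that was disrupted nor the number or sex of the animals behind a sample. Transcript level was read as log2 signal, and each difference is KO minus WT. Background, the 95th percentile of 1228 olfactory receptor rows, came to 5.86 on the KO array and 5.94 on the WT array in log2 signal.

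All 13 measurable Vγ6 T cell markers were above background on both arrays, among them Tcrg-V6, the Vγ6 chain gene, at 12.33 on the KO array and 12.64 on the WT array. The class II gene H2-Ab1 had a log2 signal of 6.67 on the KO array, still above background, and 7.68 on the WT array. Its difference of -1.01 lay inside the middle 95% for genes with a mean log2 signal within 0.5 of its own, -1.11 to 0.67. H2-Eb1, above background on both arrays, differed by -0.97, which lay outside the same kind of range for its own signal, -0.76 to 0.58. H2-Aa, above background on the WT array alone, was at least 1.17-fold lower. These values check the labels only weakly, and the deleted stretch is not known. Over 14494 genes above background on at least 1 array, the median difference was 0.04 and the robust SD 0.25. Scaling of the arrays can set that median, and a robust SD gives little weight to the genes furthest apart. Neither value therefore shows how alike the samples were. Past the 2-fold threshold lay 115 of these genes on the KO side and 167 on the WT side.

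Arginine is used by competing enzymes. Arginase splits it into urea and ornithine, and nitric oxide synthase turns it into nitric oxide and citrulline, from which argininosuccinate synthase and lyase can rebuild arginine. Ornithine decarboxylase then makes putrescine from ornithine, and spermidine and spermine synthases lengthen it with aminopropyl groups taken from decarboxylated S-adenosylmethionine. Polyamines are needed for growth and for translation, and in immune cells arginase is best known from alternatively activated macrophages and type 2 innate lymphoid cells.

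Arg1 was the member that stood furthest apart on these arrays. The gene encodes the cytosolic arginase, which is abundant in liver as the last enzyme of the urea cycle. Its signal was 3559 on the KO array and 435 on the WT array, or 11.80 and 8.76 on the log2 scale. The difference of 3.03 corresponds to an 8.19-fold higher signal in the KO sample, with both arrays well above background. In RNA of sorted cells in bulk, a different number of cells of a type and a different amount of RNA per cell cannot be told apart. The same row stood above 83.9% of the 14494 genes on the KO array and above 54.1% on the WT array, a shift in place that does not rest on the scale of the deposited values.

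The difference of Arg1 was exceeded by 2 of the 14494 genes, Erdr1 (4.39) and the predicted gene Gm25147 (3.92). Its place by difference, number 3 from the top, was the same under each of 9 other choices of scaling, background filter and row averaging. Centring could not have changed that place, since it shifts all differences alike. Nor could raising values to background or the filter on both arrays, since Arg1, Erdr1 and Gm25147 were above background on both. Among 1478 other genes whose mean log2 signal lay within 0.5 of that of Arg1, the middle 95% of differences ran from -0.52 to 0.74. In that group, 1 other gene was as far apart in either direction. That spread holds both measurement error and real differences between the samples. Arg1 had a single row, so no second row of the gene was there to compare.

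**Figure D1:**
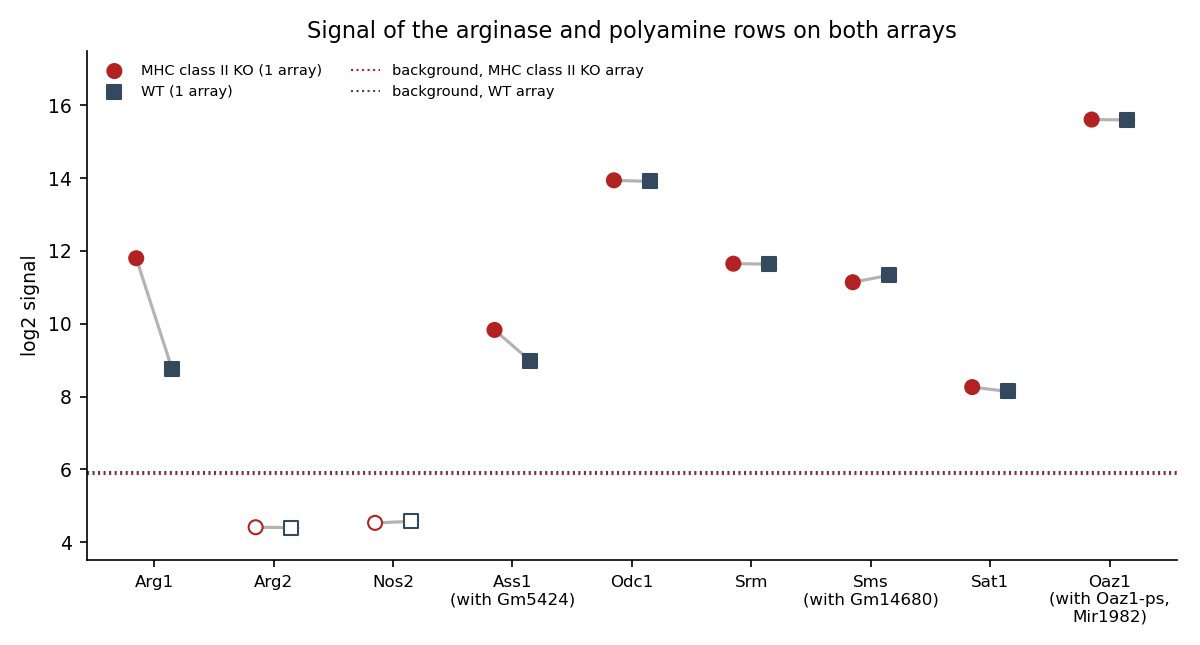
Log2 signal (y axis) of the 9 rows naming a member gene (x axis) on the KO array (red circles) and the WT array (dark squares), with open symbols below background and dotted lines at each array's background. The Arg1 pair is 3.03 apart and the Ass1 pair 0.85, the 5 other pairs above background differ by -0.19 to 0.12, and Arg2 and Nos2 lie below both lines.

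By distance over the log2 signals of the 2 arrays, the 3 named genes nearest to Arg1 were Erdr1, Ephx1 and Znrd1. Erdr1 had log2 signals of 12.08 on the KO array and 7.70 on the WT array, at a distance of 1.10 from Arg1. Ephx1, an epoxide hydrolase gene, had 10.97 on the KO array and 9.66 on the WT array, at a distance of 1.22. Znrd1 had 11.22 on the KO array and 9.96 on the WT array, at a distance of 1.33. No gene other than predicted models and small RNAs came closer than 1.10, and a likeness over 2 arrays is a weak one.

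The second member to stand apart was the row of Ass1, the gene for argininosuccinate synthase, which joins citrulline and aspartate on the way back to arginine. That row also names Gm5424, which RefSeq lists as a transcribed pseudogene, so its signal cannot be given to Ass1 alone. The signal was 909 on the KO array and 505 on the WT array, or 9.83 and 8.98 on the log2 scale. The difference of 0.85 is a 1.80-fold higher signal, and 198 of the 14494 genes had a higher difference. Of 1880 genes of like signal, 50 were as far apart in either direction, against the 1 found for Arg1. Asl, the gene for argininosuccinate lyase, which acts next in that route, had log2 signals of 8.18 on the KO array and 8.20 on the WT array.

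The 250 bases before the RefSeq start of Ass1 (GRCm38.p6, chr2:31470020-31470269, plus strand) are shown because Ass1 is the member beside Arg1 whose row differed. Capitals mark the E-box CACGTG, the letters that MYC family factors bind, and the GC box, searched as GGGCGG and CCGCCC. The sequence comes from RefSeq, whose promoter table held 6 of the 10 members. Arg1, Arg2, Nos2 and Srm had no entry.
Ass1: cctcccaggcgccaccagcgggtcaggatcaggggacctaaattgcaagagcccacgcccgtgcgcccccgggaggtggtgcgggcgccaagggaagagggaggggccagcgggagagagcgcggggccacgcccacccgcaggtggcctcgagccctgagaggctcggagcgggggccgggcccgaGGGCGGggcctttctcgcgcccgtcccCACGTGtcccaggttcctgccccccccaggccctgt

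The window holds 1 E-box, whose first base lies 36 bases before the start, and 1 GC box, whose first base lies 63 bases before it, and the motifs do not overlap. Both strands were read, the E-box being the same on each. Of 32851 windows of the same length, 6.02% hold the E-box and 32.7% the GC box. G and C make up 75.6% of the Ass1 window. A match of letters is a description and no evidence that a factor binds there.

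The other arginase and the inducible nitric oxide synthase did not pass background. Arg2, the gene for the mitochondrial arginase, had a log2 signal of 4.41 on the KO array and 4.40 on the WT array, below background on both. Nos2, the gene for inducible nitric oxide synthase, had 4.53 on the KO array and 4.57 on the WT array, also below background on both. No fold is given for either. Of the genes for the arginases and the inducible nitric oxide synthase, Arg1 alone was above background in these samples.

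The polyamine synthesis genes were well above background and nearly level between the arrays. Odc1, the gene for ornithine decarboxylase, the first and rate-limiting step, had signals of 15690 on the KO array and 15411 on the WT array. Its difference was 0.03 on the log2 scale, and -0.01 after centring on the median over all genes. Srm, the gene for spermidine synthase, had signals of 3212 on the KO array and 3182 on the WT array, a difference of 0.01 that was -0.03 after centring and -0.01 after a loess correction. The row of Sms, the gene for spermine synthase, also names Gm14680 and had signals of 2263 on the KO array and 2583 on the WT array. At -0.19, or 1.14-fold lower, it had the lowest difference of the 9 rows.

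Amd1 encodes S-adenosylmethionine decarboxylase, which supplies the aminopropyl groups. RefSeq lists it as a gene of its own and also gives Amd1 as another symbol of Amd2, so the row named Amd2 may or may not hold it. That row, not counted as a member, had log2 signals of 10.18 on the KO array and 10.28 on the WT array. The 3 rows naming Amd pseudogenes had differences of 0.14 to 0.48, and whether transcripts of Amd1 reach any of these rows is not known.

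The genes that restrain and break down polyamines were level too. Sat1, the gene for the acetyltransferase that marks spermidine and spermine for export or oxidation, had signals of 307 on the KO array and 283 on the WT array, a difference of 0.12. Oaz1 encodes antizyme, which binds ornithine decarboxylase and sends it to the proteasome. Its row, which also names Oaz1-ps and Mir1982, had signals of 50040 on the KO array and 49531 on the WT array. The difference was 0.01, and -0.02 after centring. Transcript level says nothing of antizyme protein, which is made through a frameshift that polyamines promote.

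Of the 7 rows above background on both arrays, 1 exceeded 2-fold upwards on the KO array and none downwards. Over the 16009 rows naming a gene and above background on at least 1 array, 0.887% were that much higher and 1.13% that much lower. At 1.5-fold, 2 member rows were higher and none lower, beside 4.27% and 3.37% of all such rows. Nothing is read from these shares, since the members were chosen on this contrast. The median difference of the 7 rows was 0.03, beside 0.04 for all genes above background. Next to the 2-fold threshold stood Arg1 inside it at 3.03 and Ass1 outside it at 0.85. Next outside the 1.5-fold threshold was Sms on the lower side at -0.19 and Sat1 on the higher side at 0.12.

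**Figure D2:**
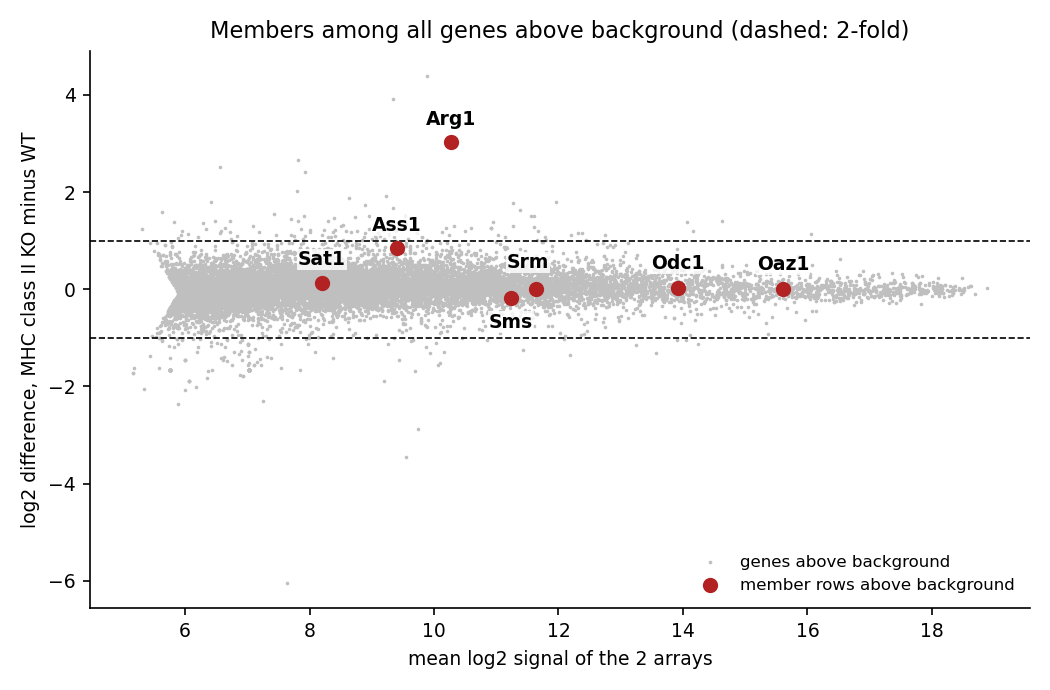
Log2 difference, MHC class II KO minus WT (y axis), against the mean log2 signal of the 2 arrays (x axis) for 14494 genes above background on at least 1 array (grey points) and the 7 member rows above background (red points); dashed lines mark 2-fold. Arg1 lies at 3.03, far above the 2-fold line, Ass1 at 0.85 lies just under it, and the other 5 lie inside the bulk of genes.

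The wider pathway was described with 63 further genes in 5 lists, of which 56 had a row of their own and 31 were above background. Of these 31, 1 exceeded 1.5-fold upwards on the KO array and 1 downwards, or 3.23% each. Over all 14494 genes the shares were 4.0% higher and 3.17% lower. The median difference of the 31 genes was 0.02, and -0.02 after centring. So 29 of the 31 lay within 1.5-fold.

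Among enzymes of arginine, ornithine, citrulline and creatine, 4 of 15 with a row of their own were above background, all within 1.5-fold (median 0.14). Oat, the gene for ornithine aminotransferase, which leads ornithine towards proline and glutamate, had log2 signals of 9.81 on the KO array and 9.33 on the WT array. Aldh18a1, which makes the same intermediate from glutamate, differed by 0.30, and Prodh, a proline-degrading enzyme gene, by -0.13. The urea cycle genes Otc, Cps1 and Nags, typical of liver, were below background on both arrays.

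Among antizymes, polyamine oxidases and the hypusine genes, a list that also held Amd2, 7 of 10 were above background, and all 7 lay within 1.5-fold (median 0.07). Azin1, the gene for the antizyme inhibitor that frees ornithine decarboxylase, had log2 signals of 11.22 on the KO array and 10.96 on the WT array, a difference of 0.26. Smox, the gene for spermine oxidase, differed by 0.12. Eif5a encodes the translation factor that carries hypusine, a residue made from spermidine, and it had log2 signals of 13.66 on the KO array and 13.70 on the WT array. Dhps, whose product starts hypusine synthesis, differed by 0.26.

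The methionine cycle and salvage genes feed the aminopropyl branch and recover its by-product. Of 9 above background, 8 lay within 1.5-fold (median -0.04). The remaining gene, or 11.1%, was Enoph1, a salvage enzyme gene, beside 4.0% of all 14494 genes that much higher. Enoph1 had signals of 541 on the KO array and 348 on the WT array, which is 1.56-fold higher. Its log2 difference of 0.64 lay inside the middle 95% for genes of like signal, -0.45 to 0.82. Apip and Adi1, whose products act on either side of the Enoph1 enzyme in the salvage route, differed by 0.32 and -0.33, and Mtap, the first salvage enzyme gene, by -0.20. Mat2a had no row with its symbol and was not analysed here.

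Of 15 genes for transporters of arginine, ornithine and polyamines, 7 were above background, all within 1.5-fold (median -0.02). Slc7a1, the gene for a cationic amino acid importer, had log2 signals of 10.64 on the KO array and 10.80 on the WT array. Slc3a2, the heavy chain gene of several exchangers, differed by 0.02, and Slc7a6, which encodes a light chain that exchanges arginine, by 0.39. Atp13a2, the gene for a lysosomal polyamine exporter, differed by -0.04. Slc7a2, an arginine importer gene of macrophages, was below background on both arrays.

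Nitric oxide synthases need tetrahydrobiopterin, and 4 of 6 genes of its synthesis were above background (median 0.12). Gch1, the gene for the rate-limiting enzyme, had signals of 1394 on the KO array and 2366 on the WT array. Its difference of -0.76 is a 1.70-fold lower signal in the KO sample. The other 3, Qdpr, Pts and Spr, differed by 0.19, 0.15 and 0.09.

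**Figure D3:**
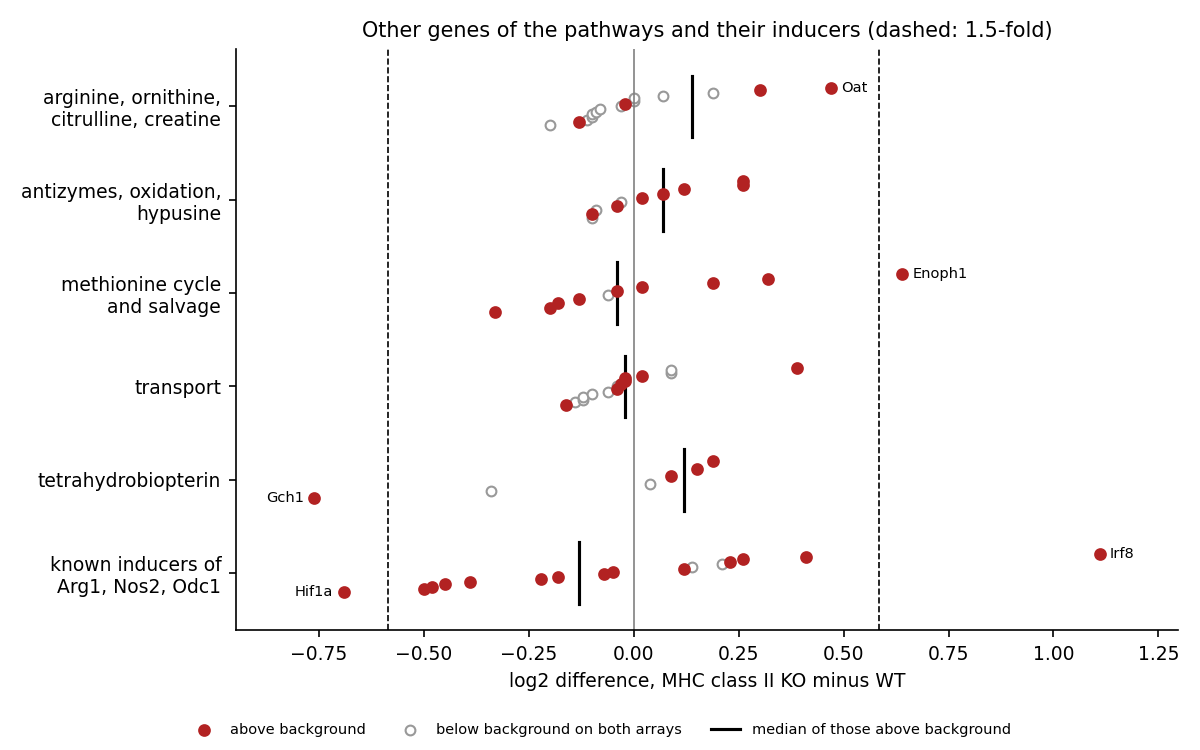
Log2 difference, MHC class II KO minus WT (x axis), of each gene with a row of its own in 5 pathway lists and a list of known inducers of Arg1, Nos2 and Odc1 (y axis); red points are above background on at least 1 array, open points are not, black bars are medians of the red points and dashed lines mark 1.5-fold. Points past the dashed lines are Enoph1 (0.64) and Irf8 (1.11) on the higher side and Gch1 (-0.76) and Hif1a (-0.69) on the lower side.

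Genes known, mostly from macrophages, to induce Arg1, Nos2 or Odc1 went both ways. Of 14 above background, 1 passed 1.5-fold in each direction (7.14% each), and the median was -0.13. Over all 14494 genes, 4.0% were that much higher and 3.17% that much lower. Irf8, the gene for a transcription factor of myeloid and B cells that takes part in Nos2 induction, had signals of 435 on the KO array and 201 on the WT array, which is 2.16-fold higher. Hif1a, the gene for the hypoxia-inducible factor that acts on both Arg1 and Nos2, had 2354 on the KO array and 3805 on the WT array, or 1.62-fold lower.

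Among the other inducers, Il4ra, the receptor chain for interleukins 4 and 13, differed by -0.48, and Stat6, the transcription factor it activates, by 0.23. Cebpb, the gene for a factor at the Arg1 enhancer in macrophages, differed by -0.05, and Klf4, which cooperates with STAT6 in macrophages, by -0.45. Ifngr2, a chain of the interferon gamma receptor on the Nos2 side, differed by -0.50. Myc, whose product activates Odc1, had log2 signals of 10.14 on the KO array and 9.73 on the WT array, a difference of 0.41 beside 0.03 for Odc1.

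Markers of other cells were read on the same arrays. Of 15 alternatively activated macrophage markers with a row of their own, 2 were above background, and 1 of these passed 1.5-fold upwards. Over all 14494 genes above background, 4.0% were that much higher. Retnla, Mrc1, Csf1r, Adgre1 and Cd163 of that list were below background on both arrays. Cd68, a lysosomal protein gene of macrophages, had 486 on the KO array and 259 on the WT array, which is 1.88-fold higher. Lyz2 passed background only on the KO array, so its signal there was at least 1.23-fold higher. The 2 genes together summed to 561 on the KO array and 317 on the WT array, and all 15 rows, mostly background, to 965 and 752. The part of such cells in the difference of Arg1 was not tested.

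Type 2 innate lymphoid cells express Arg1 in mice. Of 10 of their markers 6 were above background, with a median of -0.20. All 10 rows summed to 18570 on the KO array and 19806 on the WT array, but Rora, Icos and Bcl11b, which T cells also express, made up 18166 and 19376 of that. Their cytokine genes Il5 and Il13, and Klrg1, were below background on both arrays. The 6 differences were 0.66 for Bcl11b, 0.35 for Ptger2, -0.03 for Il17rb, -0.37 for Rora, -0.38 for Icos and -0.54 for Hpgds. The row of Gata3, which also names 9230102O04Rik and was not counted, was above background on both arrays and differed by 0.16. Il1rl1, Areg and Calca had no row with their symbol and were not analysed here.

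Of 12 granulocyte markers 4 were above background, none of them 1.5-fold apart. These 4 summed to 320 on the KO array and 392 on the WT array, and all 12 rows, most of them at background, to 587 and 701. Mpo and Elane were below background on both arrays. Among those above it, S100a9 differed by -0.46 and S100a8 by -0.33, and Ltf, above background on the WT array alone, was at least 1.12-fold lower. Ly6g went the other way and passed background only on the KO array, which puts it at least 1.06-fold higher. Such small limits do not allow for measurement error. Liver cells are rich in arginase, and 2 of 9 of their markers were above background. These 2 summed to 486 on the KO array and 575 on the WT array, and all 9 rows to 683 and 790. Alb, Ttr and Apoa1 were below background on both arrays, and of the 2 markers above it Apoa2 differed by 0.14 and Afp by -0.75.

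Most double positive thymocyte markers moved in the direction of Arg1. Of 12 above background, 8 reached 1.5-fold higher on the KO array by measured values, and 7 with every value under background set to background (median 0.74 either way). Over all 14494 genes, 4.0% were that much higher and 3.17% that much lower. The signals summed to 34604 on the KO array and 15098 on the WT array, 2.29-fold, for all 13 rows, of which only Rag2 was below background on both arrays. Cd8b1 carried most of that sum. Without it, the 11 others above background summed to 6952 on the KO array and 4424 on the WT array, 1.57-fold. Cd8b1 differed by 1.38, Aqp11 by 1.23 and Cd24a by 0.97, and Dntt, below background on the WT array, was at least 3.68-fold higher. By measured values, those within 1.5-fold were Cd4 (0.57), Tdrd5 (0.08), Cd1d1 (0.04) and Rmnd5a, which had a log2 signal of 10.33 on both arrays. The row of Rag1, which also names B230118H07Rik and was not counted, differed by 0.36. The part of such cells in the differences of Arg1, Ass1 and Enoph1 was not tested. Among the Vγ6 T cell markers, with a median of 0.08, Ccr6 (1.46) and Il17a (-1.57) were the 2 of 13 past 1.5-fold.

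**Figure D4:**
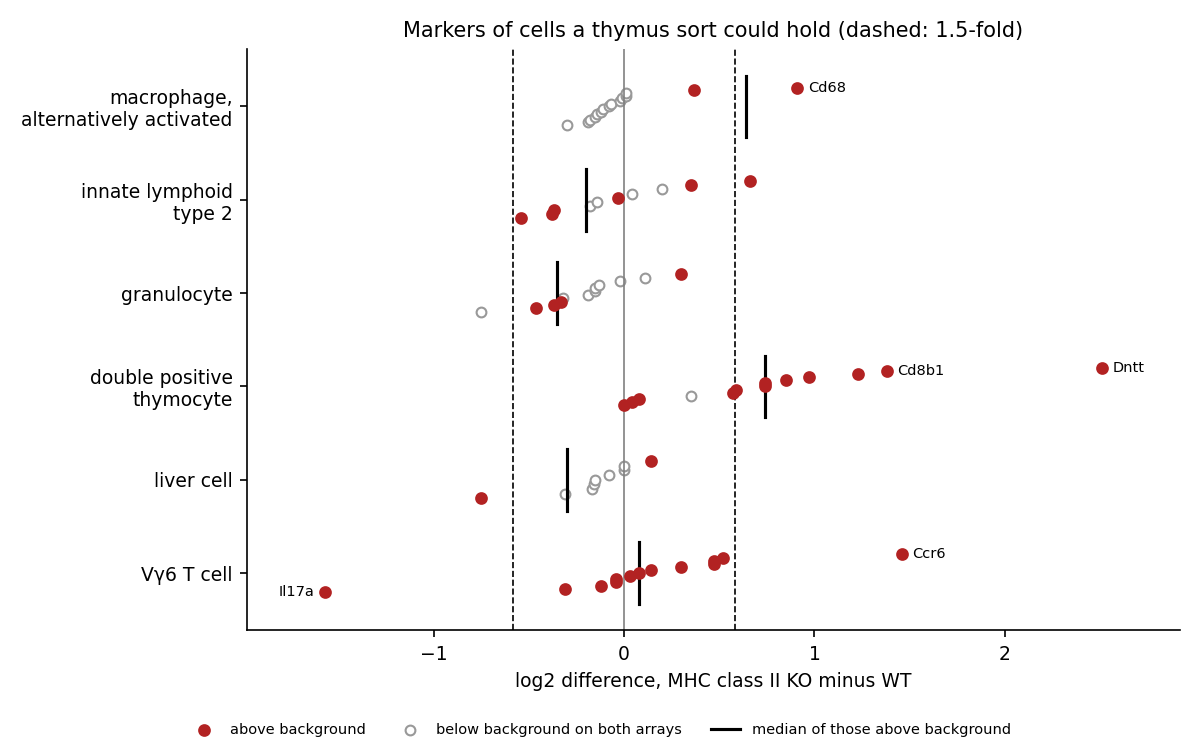
Log2 difference, MHC class II KO minus WT (x axis), of each marker with a row of its own in 6 cell type lists (y axis); red points are above background on at least 1 array, open points are not, black bars are medians of the red points and dashed lines mark 1.5-fold. Of the macrophage markers 13 of 15 are open, and 8 double positive thymocyte markers lie past the right dashed line.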

How the data were processed

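RNA of sorted Vγ6 γδ T cells was hybridised to 2 arrays, 1 per genotype. The authors deposited linear intensities for transcript clusters. RMA and Affymetrix Expression Console 1.4.1 are named per the submitters' processing notes, and the sources used here give neither the RMA variant and settings nor a genome build. Since 742 rows of the KO array and 767 of the WT array exceed 65535, the ceiling of a 16-bit scanner, an unstated step has set the scale, which could widen or narrow every fold. The number of arrays limits the precision.

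Log2 of each intensity was taken with Python 3.11.15 and pandas 2.3.3. Rows were named by the platform annotation, with symbols updated through RefSeq GRCm38.p6. Of several rows with 1 symbol the brightest stood for the gene, and rows naming several genes were kept out of gene counts. For a gene that passed background on a single array, the fold is a lower limit set by the background of the other. That limit does not allow for measurement error. Lists were counted at 1.5-fold, with no test. The 2-fold counts were tested on simulated arrays, with large changes put into bright genes and less noise than the spread seen here. The 1.5-fold counts and the lower limits were not tested in that way.

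The members and lists were chosen with earlier results of these data known. Named were all members, the list genes past 1.5-fold, up to 3 others per list, 8 genes whatever their values, and the 3 nearest to Arg1. For double positive thymocytes only some are named. Asl, Amd2, Gata3, H2-Ab1, H2-Aa, H2-Eb1, Il17rb, Ly6g, Ptger2, Rag1, Rmnd5a, genes named for being below background and chromosomal neighbours were named after their values were seen. Alternatives covered scaling (statsmodels 0.14.6 for loess, fraction 0.3), background and rows. Sums over markers above background, and without the brightest, were added after seeing the data.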

Additional observations from a re-analysis of the deposited data

How the results depend on the processing

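The 9 member differences were recomputed under 5 alternatives, and all 45 values moved by less than 0.25, the robust SD of differences over all genes. Part of that was fixed in advance. Row averaging could not move any of them, since each had a single row. Raising values to background could not move the 7 rows above it on both arrays, and centring moved all differences by the same amount. Arg1 ranged from 2.99 to 3.03 and the Ass1 row from 0.81 to 0.85. The signs of Arg2, Nos2, Oaz1, Odc1 and Srm, all within 0.08 of 0, changed with the scaling or the floor. The counts of other pathway genes past 1.5-fold were 1 higher and 1 lower under all 9 alternatives run for them. The macrophage marker median of 0.64 rests on 2 genes. It was 0.37 with background at the 90th percentile, 0.91 at the 99th percentile and 0.91 with both arrays above background, and -0.08 with no filter, where 13 more genes near background enter. Over all genes, 75 rather than 115 were at least 2-fold higher without predicted models and small RNAs, and 41 rather than 167 at least 2-fold lower. With both arrays above background 105 were at least 2-fold lower. At 1.5-fold, 459 were lower, against 147 without models and small RNAs and 288 with background at the 99th percentile. The place of Arg1 among genes was added after seeing the data. No paired analysis was possible because each genotype has 1 array.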

Other observations

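The genes beside Arg1 on chromosome 10, in the RefSeq order of GRCm38.p6, did not share its difference. Med23, a Mediator subunit gene and its nearest protein-coding neighbour with a row, had log2 signals of 9.49 on the KO array and 9.16 on the WT array, a difference of 0.34. On the other side, Akap7, which encodes an anchoring protein of protein kinase A, differed by -0.48, and Epb41l2, a membrane skeleton gene, by 0.19. Ccn2, Enpp3 and Smlr1, the remaining 3 of the 6 nearest, were below background on both arrays.

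Rows of the Amd family differed among themselves. Amd-ps4 had log2 signals of 10.34 on the KO array and 9.86 on the WT array, a difference of 0.48, while Amd2 differed by -0.10.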
